A study of Homo sapiens with 4 samples.

Results

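The tripartite motif (TRIM) genes form a large family of E3 ubiquitin ligases. Their members were taken as every gene of the deposited table named TRIM with a number and at most 1 further letter, antisense entries left out, which gave 45 of 13165 genes. GENCODE release 29 holds 74 genes so named, and the other 29 were not analysed here. RNA had been sequenced from TPC1 cells, an established human papillary thyroid cancer line, in 2 groups with 2 libraries each. TPC1-Vector cells carried the empty retroviral vector, and TPC1-INAVA cells (labelled TPC1-C1orf106) carried the same vector with the full-length cDNA of INAVA, an activator of innate immune signaling that was earlier named C1orf106. Both were stable lines selected with puromycin, and each group therefore stands for the 1 cell population that survived selection. Levels were deposited in FPKM (sequenced fragments scaled to transcript length and to the mapped total), as 1 value for each gene in each group that merges the libraries. No spread between replicates, no SD and no test can be given, and a difference between these columns cannot be told apart from a difference between the selected populations.

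C1orf106 itself had 7.96 FPKM in TPC1-Vector cells against 123 FPKM in TPC1-INAVA, which is the direction the labels give. Of the thyroid follicular markers, PAX8 (60.1 and 55.7 FPKM) and FOXE1 (5.26 and 5.89 FPKM) had a row in the table, whereas NKX2-1, TG, TSHR and SLC5A5 had none. Of 6 epithelial markers, KRT18 (140 and 212 FPKM), KRT8 (23.4 and 10.5 FPKM) and KRT7 (1.97 and 2.01 FPKM) had a row, and EPCAM, CDH1 and KRT19 had none. Among markers of other cell types, the leukocyte genes CD14 and LYZ stayed under 1 FPKM, PTPRC and CD3E had no row, and neither had the endothelial genes PECAM1, CDH5 and VWF or the fibroblast gene DCN. The fibroblast-type genes PDGFRB (2.24 and 1.39 FPKM) and COL1A1 (0.937 and 0.571 FPKM) were low, and the epithelial marker KRT7 was about as low as PDGFRB.

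A typical TRIM protein starts with a RING finger, which recruits a ubiquitin-conjugating enzyme, though some members lack it. B-box zinc fingers and a coiled coil, through which the proteins pair, come next. The carboxy-terminal domain then selects the substrate, and the family is divided by it. Most members end in a PRY-SPRY domain, and many of these act in antiviral defense, where type I interferon induces several of them through the interferon-stimulated response element of their promoters. Other members repress transcription, bind microtubules or sarcomeres, or sit in membranes.

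To show which members carry such an element, the core motif of the element (GAAA, any 2 bases, then GAAA again) was sought on both strands of the RefSeq promoters (GRCh38.p14, 250 bases before to 50 bases after the start). Promoters were at hand for 33 of the 45 genes. The others were TRIM4, TRIM8, TRIM11, TRIM13, TRIM16L, TRIM22, TRIM24, TRIM27, TRIM28, TRIM35, TRIM45 and TRIM55. The motif was present for 8 of the 33 genes (24.2%), against 4.38% of all 27305 genes with a promoter and 3.97% of the 9753 that are in the deposited table. Among 8 members listed as interferon-inducible it was present for 5, namely TRIM5, TRIM14, TRIM21, TRIM26 and TRIM34. It was also found for TRIM2, TRIM16 and TRIM44. In TRIM21 it lies after the start site. The other 4 stretches are shown 5′ to 3′ on the strand of the gene, with the motif in capitals, because these members were listed as interferon-inducible and hold it before the start, and TRIM5 and TRIM34 lie near TRIM22 on chromosome 11. Response to interferon was not measured. They were taken from chr11:5685075-5685131 (minus strand) for TRIM5, chr11:5624881-5624950 (plus strand) for TRIM34, chr9:98119223-98119278 (minus strand) for TRIM14 and chr6:30213555-30213630 (minus strand) for TRIM26, where 2 copies overlap.
TRIM5: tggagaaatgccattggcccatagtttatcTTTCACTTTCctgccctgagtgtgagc
TRIM34: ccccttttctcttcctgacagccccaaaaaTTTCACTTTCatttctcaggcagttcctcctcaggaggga
TRIM14: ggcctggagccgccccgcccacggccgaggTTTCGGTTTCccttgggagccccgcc
TRIM26: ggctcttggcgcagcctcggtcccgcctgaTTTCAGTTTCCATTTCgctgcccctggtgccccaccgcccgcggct

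Most TRIM genes were at nearly the same level in both groups, and TRIM22 stood apart. A mean of 0.5 FPKM or more was required of a gene (12305 genes passed, 43 of them TRIM genes), and fold changes were computed as the difference of log2(FPKM + 0.5), TPC1-INAVA minus TPC1-Vector, a scale on which weak genes show less than their true change. A gene was called higher or lower when it differed by at least 1.5-fold on this scale. Of the 43 genes, 1 was called higher (TRIM22) and 2 lower (TRIM59 and TRIM16L). Over all genes kept, 2.24% were called higher and 1.45% lower, beside 2.33% and 4.65% of the TRIM genes, which are 1 and 2 genes. TRIM22 was known as a riser when the family was chosen and passed the filter only through its level in TPC1-INAVA, so nothing is read from the count of genes called higher. The median log2 fold change of the TRIM genes was -0.033, with 20 above 0, against 0.0033 for all genes. Of the 43 genes, 31 (72.1%) lay within 0.2 of 0, as did 70.2% of all genes.

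**Figure D1:**
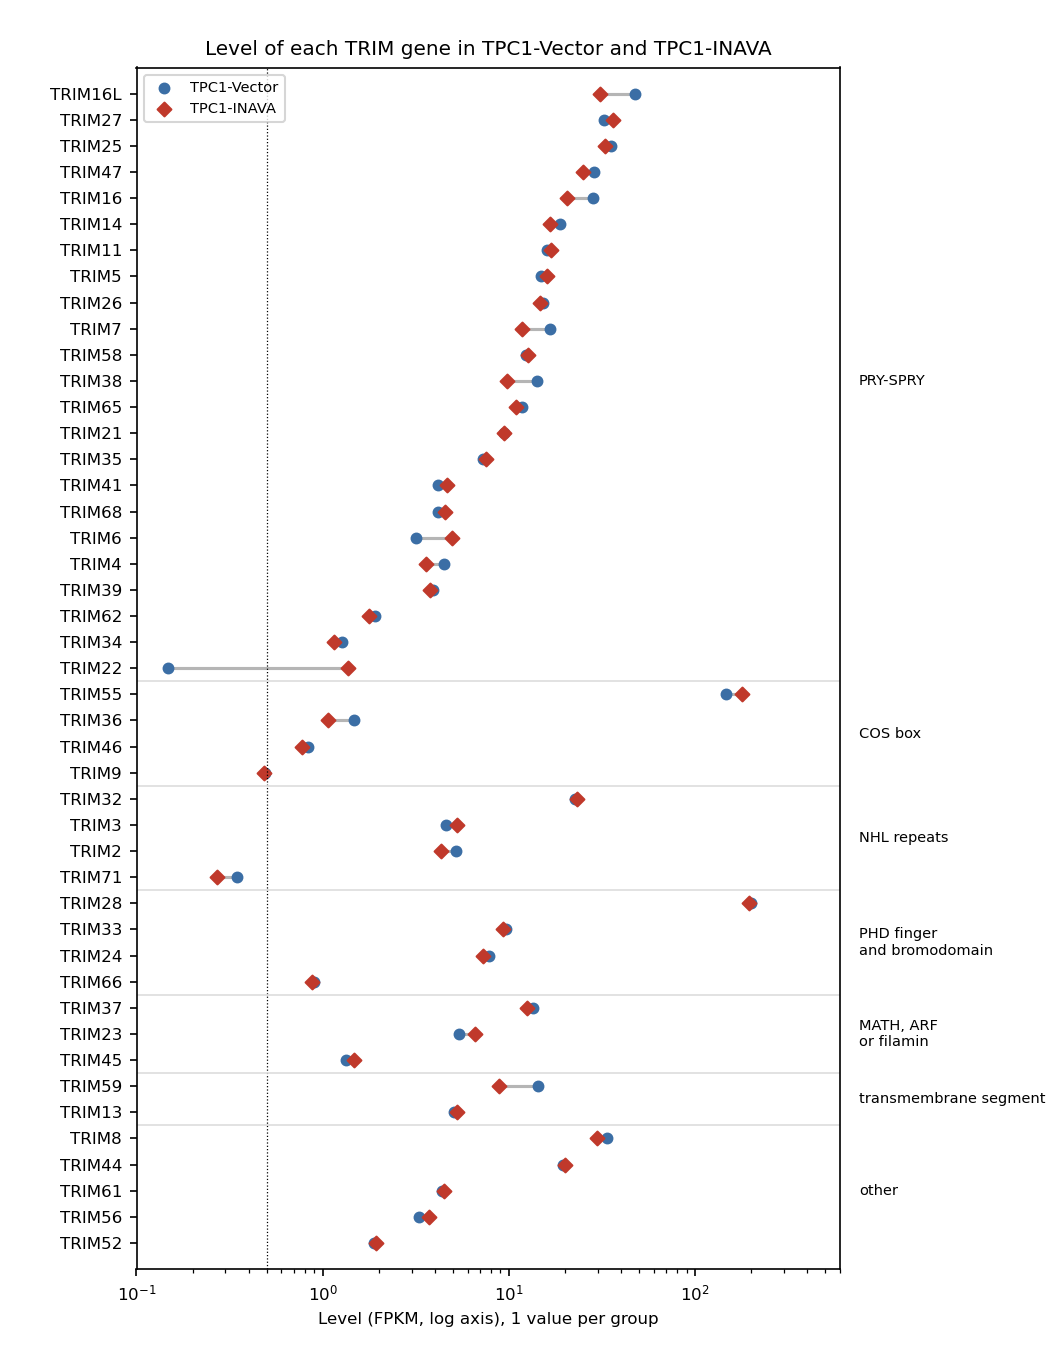
Level of each of the 45 TRIM genes in FPKM (log axis) in TPC1-Vector (blue circles) and TPC1-INAVA (red diamonds), 1 value per group. Genes are grouped by domain class, and a dotted line marks 0.5 FPKM. The circle and the diamond of most genes nearly coincide, and TRIM22 shows the widest gap, from 0.147 to 1.37 FPKM.

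The levels themselves differed widely between members. TRIM28, the corepressor that KRAB zinc finger proteins recruit to silence retroelements, came first with 199 FPKM in TPC1-Vector cells against 195 FPKM in TPC1-INAVA. TRIM55, known as the muscle ring finger protein MURF2 of sarcomeres, was second with 147 and 178 FPKM. Both genes together made up 41.5% of the summed FPKM of the family in TPC1-Vector and 45.6% in TPC1-INAVA. Next came TRIM16L, TRIM27, TRIM25 and TRIM8 with means from 39.1 down to 31.6 FPKM. In all, 20 genes had a mean of at least 10 FPKM, 20 lay between 1 and 10 FPKM, and 5 were under 1 FPKM. TRIM9, a brain-enriched ligase (0.490 and 0.486 FPKM), and TRIM71, the LIN-41 homolog of early development (0.347 and 0.272 FPKM), were under the filter. FPKM is scaled to transcript length, so levels can be set side by side between genes, but neighbours in this order cannot be told apart without replicate values.

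TRIM22, an antiviral ligase known to be induced by interferon, had 0.147 FPKM in TPC1-Vector but 1.37 FPKM in TPC1-INAVA. The ratio of these values was 9.35, and the log2 fold change was 1.53 with 0.5 added to each value and 3.23 with nothing added. These values describe a gene chosen with its rise known. The level remained low in both groups, and in TPC1-INAVA TRIM22 was still below 38 of the other TRIM genes. Of the 883 genes with a mean between 0.5 and 1 FPKM, 53 (6%) were called higher, more often than among all genes. The number of fragments behind the vector value is unknown, so its counting error cannot be stated.

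TRIM22 (chr11:5689587-5710863, plus strand, hg38) lies in a cluster of related genes on chromosome 11. It starts 4477 bases from the end of TRIM5, and TRIM6 and TRIM34 lie on the other side of TRIM5. Of the other genes of this cluster, TRIM5, TRIM6 and TRIM34, none was called, and TRIM6 came close, as given below. That lies at the background for so few genes (2.24% higher and 1.45% lower over all genes). TRIM5, the restriction factor that binds retroviral capsids, stood at 14.9 and 16.1 FPKM, a log2 fold change of 0.10. TRIM34, a related capsid-binding protein, stood at 1.28 and 1.15 FPKM, with a log2 fold change of -0.11. TRIM21, the cytosolic antibody receptor, lies at some distance on the same chromosome and stood at 9.37 and 9.38 FPKM. Over its neighbours, the 24 genes that averaged 1 FPKM or more within 2 Mb on each side, the median log2 fold change was 0.037 and 14 were above 0. Of the 50-base words in the GENCODE transcripts of TRIM22, 12.1% recur in transcripts of other genes, mostly in those of the olfactory receptor gene OR56B1, which overlaps TRIM22 in GENCODE and had no row in the table. Some GENCODE models of TRIM5, on the other strand, also extend over TRIM22.

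TRIM6, which builds unanchored ubiquitin chains that activate the kinase IKKε, was at 3.17 FPKM without and 4.95 FPKM with INAVA. Its log2 fold change, 0.57, was the second highest of the family and lay just under the 0.585 needed for a call. TRIM6 and TRIM34 have the same position in the deposited table (chr11:5596101-5644395), and GENCODE annotates a read-through gene, TRIM6-TRIM34, over both. Of their 50-base words, 25.9% for TRIM6 and 83.1% for TRIM34 recur in other genes, mostly in this read-through gene, so the division of fragments between them is uncertain. TRIM68 (4.15 and 4.51 FPKM) and TRIM3 (4.59 and 5.24 FPKM), also on chromosome 11, had log2 fold changes of 0.11 and 0.17.

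**Figure D2:**
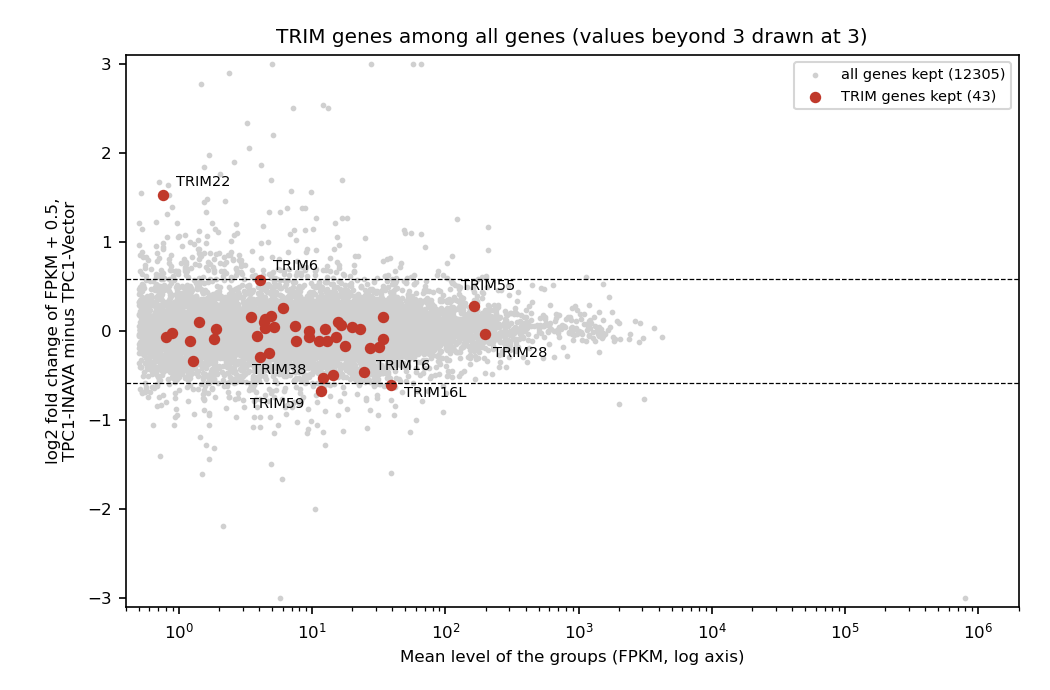
Log2 fold change of FPKM + 0.5 (TPC1-INAVA minus TPC1-Vector) against the mean level in FPKM (log axis) for 12305 genes (grey, values beyond 3 drawn at 3) and the 43 TRIM genes kept (red), with dashed lines at 1.5-fold. TRIM22 at 1.53 lies far above the other TRIM genes, TRIM6 lies just under the upper line, and TRIM59 and TRIM16L lie under the lower one.

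TRIM59, a membrane-anchored ligase of the endoplasmic reticulum, was lower in TPC1-INAVA, at 8.82 FPKM against 14.4 FPKM in TPC1-Vector. Its log2 fold change was -0.68, the lowest of the family. Of the 50-base words of TRIM59, 14.4% recur in other genes. All 12 neighbours, chosen as for TRIM22 around chr3:160435503-160449838, also lay under 0, with a median of -0.43. Less that median, TRIM59 was at -0.25 and would not be called. TRIM8, a ligase that acts in cytokine signaling, lies at chr10:102644495-102658319, where 41 of 43 neighbours lay under 0, with a median of -0.30. It stood at 33.5 and 29.7 FPKM, a log2 fold change of -0.17, which became 0.13 less the median of the neighbours. Both genes lie in the stretches of chromosomes 3 and 10 whose genes lay under 0 together. The medians around the other 43 TRIM genes lay within 0.15 of 0.

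**Figure D3:**
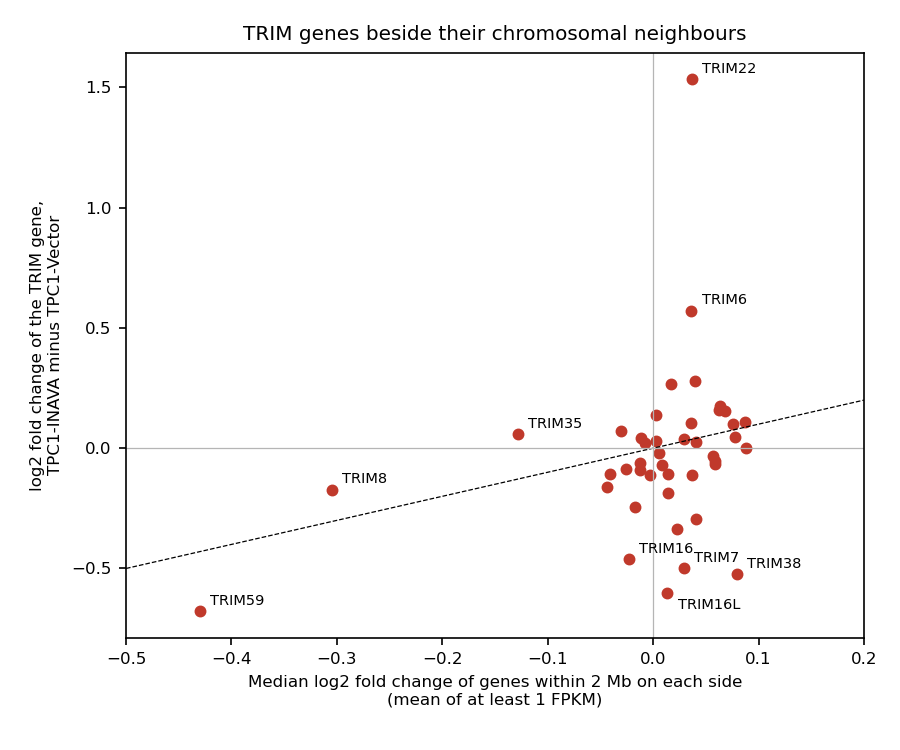
Log2 fold change of each of the 43 TRIM genes kept against the median log2 fold change of the genes within 2 Mb on each side of it, with a dashed line where both are equal. TRIM59 and TRIM8 lie at neighbour medians of -0.43 and -0.30, whereas TRIM22, TRIM6, TRIM16L, TRIM38 and TRIM7 lie far from the line at neighbour medians near 0.

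TRIM16L went from 47.3 to 31.0 FPKM, with a log2 fold change of -0.60. TRIM16, a RING-less member that takes part in the autophagy of damaged endomembranes, was at 28.3 and 20.4 FPKM, with -0.46. They lie apart on chromosome 17 (TRIM16L at chr17:18722089-18736118, TRIM16 at chr17:15627966-15682879), and the medians of their neighbours were 0.013 and -0.023. TRIM16L is a partial copy of TRIM16, which GENCODE annotates as protein coding and RefSeq as a transcribed pseudogene. Over 1044 aligned coding bases, 1030 (98.7%) were identical, and 42.6% of the 50-base words of TRIM16L and 42.0% of those of TRIM16 recur in other genes, mostly in one another. Fragments of these genes could therefore be shared, and their values are not independent. The stretch of 100 coding bases with the most differences is shown to display how alike they are (bases 1476 to 1575 of the coding sequence of TRIM16 and 828 to 927 of that of TRIM16L, GENCODE release 29), with the 5 bases that differ in capitals.
TRIM16: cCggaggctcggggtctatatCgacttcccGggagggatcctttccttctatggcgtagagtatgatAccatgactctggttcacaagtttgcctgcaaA
TRIM16L: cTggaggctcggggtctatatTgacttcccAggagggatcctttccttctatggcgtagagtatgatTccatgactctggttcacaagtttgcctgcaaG

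Another pair of genes came close to a call in the same direction. TRIM38, which restrains signaling from Toll-like receptors by acting on TAB2 and TAB3, was at 14.2 and 9.73 FPKM, a log2 fold change of -0.52. Its 38 neighbours on chromosome 6 had a median of 0.079, with 24 above 0. Less that median, TRIM38 was at -0.60 and would be called lower. TRIM7, known for its binding of glycogenin, was at 16.7 and 11.7 FPKM, with -0.50, and the median of its neighbours was 0.029. Fewer than 1% of the 50-base words of each recur in other genes.

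By domain class, with the COS box genes kept as a class of their own, the 23 PRY-SPRY genes had a median log2 fold change of -0.066. Of these genes, 10 were above 0. They held 1 gene called higher (TRIM22) and 1 called lower (TRIM16L), 4.35% each against 2.24% and 1.45% of all genes. TRIM22 was chosen with its rise known, and TRIM16L may share fragments with TRIM16, so nothing is read from these shares. Among the abundant PRY-SPRY genes, TRIM27, which acts in endosomal sorting with MAGE proteins, was at 32.3 and 36.2 FPKM. TRIM25, which ubiquitinates the RNA sensor RIG-I, was at 35.2 and 33.0 FPKM. TRIM14, a mitochondrial adaptor of antiviral signaling, was at 18.7 and 16.7 FPKM, with a log2 fold change of -0.16. TRIM47 was at 28.7 and 25.1 FPKM, and TRIM4, another ligase of RIG-I, at 4.50 and 3.58 FPKM, with log2 fold changes of -0.19 and -0.29. TRIM11, TRIM26, TRIM35, TRIM39, TRIM41, TRIM58, TRIM62 and TRIM65 lay between -0.11 and 0.14. The deposited positions of TRIM26, TRIM27 and TRIM39 are on an alternate scaffold of chromosome 6, not on the chromosome itself. TRIM39 also shares 26.9% of its 50-base words, mostly with the read-through gene TRIM39-RPP21, so its value is uncertain.

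The smaller domain classes showed no call apart from TRIM59. Each had only 2 to 4 genes kept, beside shares of 2.24% higher and 1.45% lower over all genes. Nothing is therefore read from the lack of calls. The 4 genes with a PHD finger and bromodomain all lay slightly under 0, between -0.11 for TRIM24 and -0.020 for TRIM66. TRIM24, a coregulator of nuclear receptors, was at 7.86 and 7.26 FPKM, and TRIM33, a regulator of SMAD signaling, at 9.65 and 9.24 FPKM. Of the NHL repeat genes, TRIM32, mutated in a limb-girdle muscular dystrophy, was at 22.7 and 23.1 FPKM, and TRIM2 was at 5.20 and 4.32 FPKM, with -0.24. Among the microtubule-binding COS box genes, TRIM55 had a log2 fold change of 0.28, TRIM36 (1.47 and 1.06 FPKM) one of -0.34 and TRIM46, which organizes microtubules at the start of the axon, stayed under 1 FPKM (0.833 and 0.772 FPKM). TRIM23, which carries an ARF domain, was at 5.39 and 6.57 FPKM, with 0.27, while TRIM37 and TRIM45 were at -0.11 and 0.10. TRIM13, the other membrane-anchored member, was at 5.07 and 5.24 FPKM, and its position overlaps those of 3 other genes. The 5 genes placed in no class here lay between -0.17 for TRIM8 and 0.15 for TRIM56, with TRIM44, TRIM52 and TRIM61 from 0.029 to 0.046, and the value of TRIM61 is uncertain because 31.1% of its 50-base words recur in other genes. TRIM-type ligases with other names behaved likewise, with log2 fold changes of 0.16 for PML (30.7 and 34.4 FPKM), -0.20 for MID1 (5.47 and 4.68 FPKM) and 0.033 for MID2 (1.80 and 1.86 FPKM), and MEFV had no row.

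Of the 9 interferon-inducible TRIM genes in the table, 1 (11.1%, against 2.24% of all genes) was called higher and none lower. The gene called was TRIM22 itself, and the median of the 8 without TRIM22 was -0.078, with 3 above 0. The 8 genes with the response element motif included no gene called, with a range from -0.46 to 0.10. That lies at the background for so few genes (2.24% higher and 1.45% lower over all genes). TRIM22 and TRIM16L, both called, had no promoter at hand and could not be among them. Of 38 other interferon-stimulated genes kept, 1 was called higher (2.63%, against the background of 2.24%) and none lower, with a median of -0.031. The gene called was OASL, a sensor cofactor, at 0.613 and 1.28 FPKM, a low level in both groups. In the same list IFIT2 was at 3.45 and 2.20 FPKM, IFI35 at 13.2 and 9.36 FPKM and PSMB9 at 1.63 and 2.35 FPKM. GBP2, an interferon-induced GTPase named here after its values were seen, was under the filter at 0.154 and 0.706 FPKM, with a log2 fold change of 0.88. The neighbours of IFIT2 on chromosome 10 had a median of -0.29.

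The partners with which TRIM ligases work were tallied in 3 lists of 13 to 18 genes, in which the shares over all genes (2.24% higher, 1.45% lower) would give fewer than 1 call in each direction, so counts of 0 lay at the background. None of 13 ubiquitin-conjugating enzymes was called, with a median of -0.030, and the farthest from 0 were UBE2V1 (90.3 and 125 FPKM, 0.47), UBE2E2 (13.8 and 19.0 FPKM, 0.45), UBE2L6 (7.60 and 5.69 FPKM, -0.39) and UBE2D1 (24.6 and 19.6 FPKM, -0.32). The neighbours of UBE2V1 had a median of 0.30 and those of UBE2D1 of -0.29. None of 18 genes of antiviral sensing was called, with a median of -0.035. TICAM1, the adaptor of Toll-like receptor 3, was at 2.24 and 3.26 FPKM, TMEM173, which encodes STING, at 10.3 and 7.83 FPKM, TRAF3 at 10.5 and 12.3 FPKM and DDX58, which encodes RIG-I, at 7.75 and 8.73 FPKM. None of 13 partners of TRIM28 in heterochromatin was called, with a median of -0.021, and CBX5 (55.6 and 48.4 FPKM) and SETDB1 (12.2 and 10.7 FPKM) were the farthest from 0, before PPHLN1 (29.5 and 28.2 FPKM) and CBX1 (75.3 and 72.5 FPKM). For comparison, of 62 genes kept from the RNF family of RING ligases none was called, beside 2.24% higher and 1.45% lower over all genes. With shares this small, none among 62 genes is not read as a difference from the background. The RNF genes had a median of -0.0086 and a range from -0.38 to 0.47. The top of the TRIM range is TRIM22, chosen with its rise known, and the next TRIM gene was TRIM6 at 0.57. Nothing is therefore read from the width of the ranges, which was not tested.

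**Figure D4:**
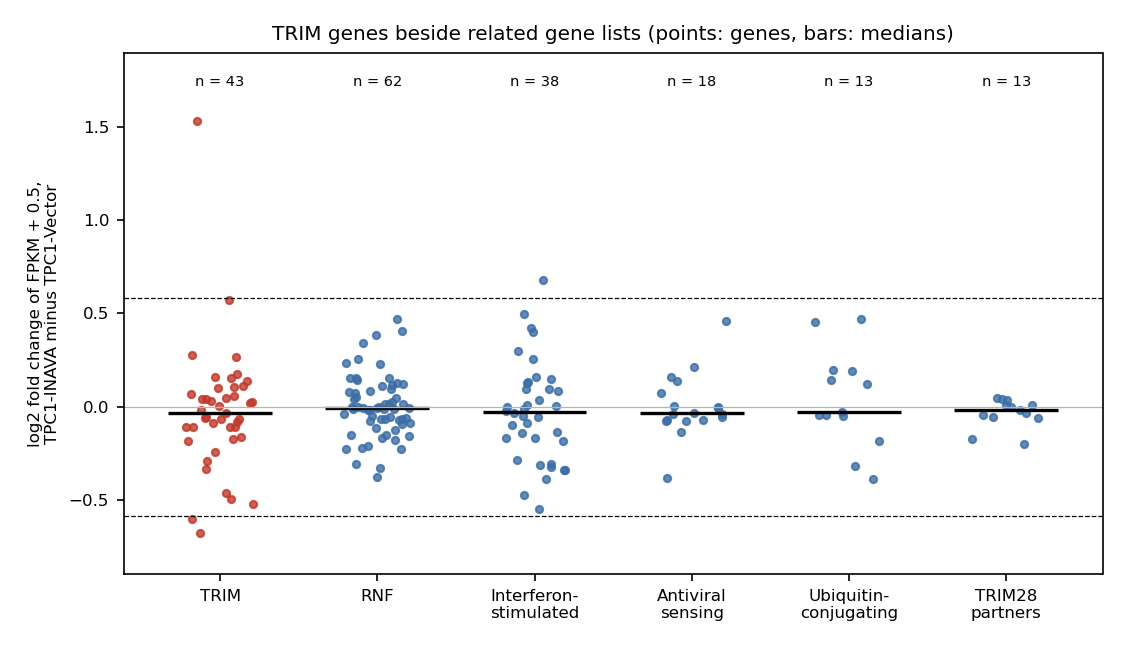
Log2 fold change of FPKM + 0.5 (TPC1-INAVA minus TPC1-Vector) of the genes kept (points, spread sideways at random) in the TRIM family and in 5 related lists, with medians as bars and dashed lines at 1.5-fold. The medians lie between -0.035 and -0.0086, and TRIM22 is the point at 1.53.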

How the data were processed

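The authors deposited 1 table of FPKM values that merges the 2 libraries of each group (TPC1-Vector and TPC1-INAVA) into 1 value. The submitters' processing notes name CASAVA, Cufflinks 2.1.1, Cuffdiff and the build hg38. The aligner and annotation are not given in the sources used here. The labels and the study's methods name different library kits and sequencer models. The authors' own comparison columns (log2 ratio, direction, p-value and q-value) were not used. Depth per library is unknown, since the columns combine libraries, and no interval is given.

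Values were compared as differences of log2(FPKM + 0.5) in genes averaging 0.5 FPKM or more, and 1.5-fold was used as the call, with no test. Start positions were raised by 1, because 2602 starts then equaled those of RefSeq, against 313 without it, of 11684 genes compared. Genes named were every TRIM gene, C1orf106, the markers, other TRIM-type ligases and the 4 largest changes per list among genes reaching 1 FPKM. OR56B1 and GBP2 were added after the values were seen. A further gene list and some marker genes are not reported here. Shared 50-base words were counted over all transcripts of GENCODE release 29, and coding sequences were aligned locally with biopython 1.88. The scripts ran on Python 3.11.15 with numpy 2.4.6, pandas 2.3.3 and matplotlib 3.10.9, and the calls were tested on simulated data. The simulation left out weak genes such as TRIM22 and held only larger changes, so it does not cover changes near 1.5-fold. The members and lists were chosen with earlier results of these data known.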

Additional observations from a re-analysis of the deposited data

How the results depend on the processing

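No paired analysis was possible because the libraries of each group are merged into 1 value. For the same reason limma, the replicate block and leaving out each library were not run. The log2 fold change of TRIM22, 1.53, was 2.58 with a pseudocount of 0.1, 1.05 with a pseudocount of 1 and 3.23 with none, the last chosen after seeing the data, since any constant added to a weak gene lowers its fold change. Shares over all genes were computed at the main setting only, so nothing is read from the counts of calls that follow. With a pseudocount of 0.1, 2 TRIM genes were called higher (TRIM6 joined, also 2 in the PRY-SPRY class). At that setting 1 RNF gene was called higher, and interferon-stimulated genes gave 2 higher and 1 lower. With a mean of at least 1 FPKM, 0 TRIM genes (0 in the PRY-SPRY class and 0 of those inducible by interferon) and 0 interferon-stimulated genes were called higher, because TRIM22 and OASL fall under that filter. With no filter 2 interferon-stimulated genes (OASL and GBP2) were called higher, and with a pseudocount of 1 there were 0. At 2-fold, 0 TRIM genes were called lower and 0 interferon-stimulated genes higher. Without the 6 members that share over 20% of their 50-base words, chosen after seeing the data, 1 TRIM gene was called lower, since TRIM16L is left out. After subtraction of the median of neighbours, 2 TRIM genes were again called lower, but these were TRIM16L and TRIM38 instead of TRIM16L and TRIM59, and TRIM8 went from -0.17 to 0.13 and TRIM35 from 0.059 to 0.19, neither called. For the counts and medians of the family, classes and lists and for TRIM22, 17 recomputed values moved over these settings, as given here. Another 288 moved by less than 1.5 times (counts, many of them 0 throughout) or 0.1 (log2 values). TRIM59, TRIM8 and TRIM35 are not in this tally. Over single TRIM genes, TRIM22 included, 6 values moved and 293 moved by less than 0.1. No called gene changed direction. The depth behind each value is unknown.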

Other observations

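TRIM52-AS1, the antisense gene left out of the family, had 2.71 FPKM without and 2.85 FPKM with INAVA, next to 1.88 and 1.93 FPKM for TRIM52.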
